A study of Mus musculus with 223 samples.

Results

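The 36 genes described here encode the mouse Eph receptors and ephrins, the Robo receptors and Slits, and a set of netrins and netrin receptors. They were taken from a fixed list of gene symbols, matched through Ensembl identifiers to 36 of the 43629 genes counted in single interneurons (INs) of the developing mouse cortex. The list holds 9 EphA receptors, 5 EphB receptors, 5 ephrin-A ligands, 3 ephrin-B ligands, 3 Robo receptors, 3 Slits, 2 netrins, 4 Unc5 receptors and the 2 DCC family receptors. They were examined in 223 cells, each with a library of its own. The cells came from transgenic mice of both sexes, on a C57BL/6 background, that express eGFP under regulatory sequences of Htr3a, and they were sorted by GFP fluorescence. At E18, 82 cells were collected. The postnatal INs are divided into type 1, type 2 and type 3, with 22, 31 and 13 cells at P2 and 34, 19 and 22 cells at P5. Cells had also to hold at least 1 eGFP read, so every group shares the transgene and the sort, and no group lacks it. Brains of several embryos or pups were pooled at each age, which makes each age 1 sample, and cells of 1 pool are not replicates. No p-value was therefore computed. The types are the authors' own assignment and were drawn from these same counts, so a difference between types is given as a description.

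Eph receptors are receptor tyrosine kinases whose ligands, the ephrins, are themselves bound to the cell surface. Ephrin-A proteins are held by a lipid anchor and mostly bind EphA receptors, ephrin-B proteins span the membrane and mostly bind EphB receptors, and EphA4 binds members of both classes. Robo receptors bind the secreted Slit proteins and are known mainly for repelling axons and migrating neurons. Netrins attract through DCC and repel through Unc5 receptors, and neogenin, the product of Neo1, is the relative of DCC that also binds repulsive guidance molecules. In the forebrain these families are known for guiding interneurons out of the ganglionic eminences and keeping them out of territories such as the striatum.

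The read pairs mapped per cell ranged from 3707601 to 15840130 with a median of 9463033, and those on genes from 1596087 to 11692823. Levels are given as RPM, the read pairs on a gene for each 1000000 mapped read pairs of the cell. For a group the pairs were summed over its cells and divided by the summed depth, with an exact 95% Poisson interval, and the share of cells above 10 RPM has an exact 95% binomial interval. The Poisson interval counts read pairs, and because PCR copies are not independent molecules it is too narrow, while cells differ far more than it spans. The binomial interval takes the cells of 1 pool as separate draws. Neither covers differences between animals or pools. At least 3 of 6 interneuron markers (Gad1, Gad2, Dlx1, Dlx2, Dlx5 and Htr3a) were above 10 RPM in 71 of 82 E18 cells, and in shares of the postnatal groups from 9 of 13 (P2 type 3, where Dlx2 was at 0) to 33 of 34 (P5 type 1). Genes of other cells were also seen. At least 3 of 6 excitatory neuron markers were above 10 RPM in 11 E18 cells and in 0 cells of every other group, and 3 or more of 5 markers of INs from the medial ganglionic eminence (MGE) in 34 E18 cells, 3 type 2 INs and 1 type 3 IN at P2. At least 3 of 6 astrocyte markers were above 10 RPM in 3 type 2 INs at P5, in which the summed level of the list reached 16430 RPM in 1 cell, and 3 of 6 oligodendrocyte markers in 1 more. Microglia, endothelial and erythrocyte markers were above 10 RPM for 3 or more genes in 0 cells. The cell labels fall into library sets, here called A to D, whose meaning is not stated. Every P2 cell is in set A, and the other ages share sets B, C and D. The methods also give a different dissociation for P5 than for E18 and P2. The effect of age at P2 and that of set A cannot be told apart, and the same holds for age and dissociation at P5. In type 3 INs fewer of the mapped pairs fell on genes, with a median of 2620272 pairs per cell at P5 against 5328259 in type 1 INs.

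Of the 36 genes, 31 were above 10 RPM in at least 1 cell and 18 in more than 5% of the 223 cells, which was the minimum for a comparison. Robo3, a divergent Robo receptor of commissural neurons, had 0 read pairs in all 223 cells, and Epha1, Epha8, Ephb4 and Efna1 were above 10 RPM in 0 of 223 cells, which allows a share of up to 1.35%. Genes are described one by one where 25% or more of the cells of some group were above 10 RPM, which holds for 11: Epha4, Epha5, Epha7, Ephb2, Efna5, Efnb2, Efnb3, Robo1, Robo2, Unc5c and Neo1. The other 25 reached at most 22.7% of the cells of a group and at most 51.5 RPM. Per kilobase of exonic length, which allows levels of different genes to be compared, the order of the 11 over all cells was Efnb2 (19.5 RPM per kb), Efnb3 (16.7), Robo2 (13.9), Efna5 (13.3), Epha4 (9.12), Epha7 (5.51), Epha5 (4.89), Neo1 (4.21), Robo1 (2.45), Ephb2 (2.33) and Unc5c (1.02). In P5 type 1 INs Robo2 stood first of the 11, at 34.6 RPM per kb against 25.8 for Efnb2. The order over all cells depends on the mix of ages and types, whose levels differed, as given below for Efna5 and Robo2. Of the 11, Unc5c shares exonic sequence with another gene, 118 bases with Gm15688 on the opposite strand, and whether counting used strand is not given in the sources used here.

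**Figure D1:**
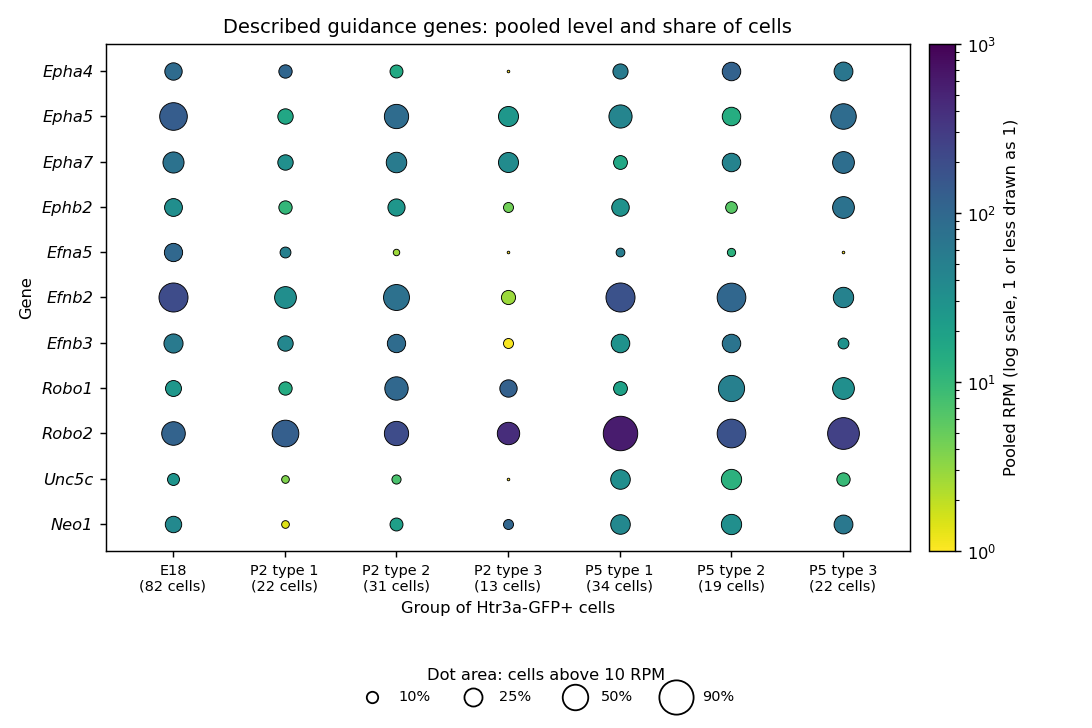
Pooled RPM (colour, log scale) and share of cells above 10 RPM (dot area) of the 11 described genes, in rows, in the 7 groups of cells, in columns. Robo2 in P5 type 1 INs has the largest dot, 91.2% of cells at 588 RPM, and Efna5 is seen mainly at E18, in 25.6% of cells.

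Robo2 and Robo1 are both on chromosome 16, at chr16:73891839-74411825 on the minus strand and at chr16:72308306-73046095 on the plus strand (GRCm38, as are all gene positions here). Efnb2 lies at chr8:8617434-8661242 and Efna5 at chr17:62604184-62881317, both on the minus strand. These 4 genes had the differences described first below, and the 250 bases before their RefSeq starts (GRCm38.p6) are shown so that the regions can be compared. They were read as chr16:74411826-74412075 on the minus strand for Robo2, chr16:72662899-72663148 on the plus strand for Robo1, chr8:8661243-8661492 on the minus strand for Efnb2 and chr17:62881318-62881567 on the minus strand for Efna5. The Robo1 start is 354843 bases inside the annotated gene, so it is an internal start. The other 3 are the annotated starts of their genes, for Robo2 1 of 3 RefSeq starts. In each window 0 bases lie in the exons of the gene. Capitals mark matches, on either strand, to letters of 4 known motifs. The GC box was searched as GGGCGG and the core of the Meis motif as TGACAG. The TATA box was searched as TATAAA. For homeodomain proteins the core searched was TAATTA.
Robo2: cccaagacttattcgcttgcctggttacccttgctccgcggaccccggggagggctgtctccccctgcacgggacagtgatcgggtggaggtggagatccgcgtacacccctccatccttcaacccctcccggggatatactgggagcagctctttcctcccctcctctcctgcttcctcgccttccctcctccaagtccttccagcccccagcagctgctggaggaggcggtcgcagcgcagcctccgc
Robo1: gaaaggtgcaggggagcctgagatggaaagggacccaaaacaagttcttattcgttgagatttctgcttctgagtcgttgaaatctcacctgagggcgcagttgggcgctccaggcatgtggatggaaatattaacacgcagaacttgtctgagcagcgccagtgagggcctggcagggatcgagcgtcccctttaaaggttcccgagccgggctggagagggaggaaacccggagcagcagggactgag
Efnb2: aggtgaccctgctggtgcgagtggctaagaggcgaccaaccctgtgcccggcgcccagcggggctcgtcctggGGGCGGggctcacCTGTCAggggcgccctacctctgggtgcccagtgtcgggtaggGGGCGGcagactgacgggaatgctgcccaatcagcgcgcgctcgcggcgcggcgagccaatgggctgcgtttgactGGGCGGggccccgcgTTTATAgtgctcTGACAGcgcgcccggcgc
Efna5: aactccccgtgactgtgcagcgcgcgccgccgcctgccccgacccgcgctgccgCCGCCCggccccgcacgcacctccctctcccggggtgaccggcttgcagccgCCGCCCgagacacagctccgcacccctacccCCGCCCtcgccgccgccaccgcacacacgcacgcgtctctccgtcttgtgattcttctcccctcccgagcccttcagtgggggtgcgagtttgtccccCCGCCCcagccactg
The Efnb2 window held 3 GC boxes, 2 Meis cores and 1 TATA box and the Efna5 window 4 GC boxes, and the windows of Robo2 and Robo1 held none of these letters. RefSeq windows of 300 bases, 250 before and 50 after the start, were matched for 31 of the 36 genes. The GC box was in 23 of them (74.2%) against 35.9% of all 32544 mouse windows, the Meis core in 2 (6.45%) against 19.1%, the TATA box in 2 (6.45%) against 13.6% and the homeodomain core in 3 (9.68%) against 5.29%. The median number of CpG dinucleotides was 23 against 7 over all windows. A match describes letters, not a bound site.

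Robo2 was the guidance gene above 10 RPM in the most cells, 126 of 223. It had at least 1 read pair in 168 cells, fewer than Ephb2 (215), Epha5 (211), Epha2 (191), Epha4 (177) and Efnb2 (175). In P5 type 1 INs it ranged from 0.0974 to 2394 RPM with a median of 445, and it was above 10 RPM in 31 of 34 cells (91.2%, interval 76.3 to 98.1%). In the other P5 types the lowest cell was at 0, the median at 55.8 and the highest at 1173 RPM, with 29 of 41 cells above 10 RPM (70.7%, 54.5 to 83.9%). The 2 ranges overlap, but the median type 1 cell lay well above that of the others. Pooled over cells the level was 588 RPM (585 to 590) in type 1 against 217 RPM in the other types, a log2 fold of 1.44. Separately, type 2 was at 175 RPM with 12 of 19 cells above 10 RPM and type 3 at 261 RPM with 17 of 22. Within library set D the fold was 0.67, with 10 of 12 type 1 cells above 10 RPM against 22 of 31 of the others, and within set C it was 2.35, with 11 of 11 against 4 of 6. The fold between types thus differed with the library set, and set D holds most of the P5 cells of types 2 and 3.

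Robo1, the second Slit receptor of these cells, was distributed the other way. At P5 it was above 10 RPM in 10 of 19 type 2 INs (52.6%, 28.9 to 75.6%). The numbers were 8 of 22 for type 3 and 5 of 34 for type 1 (14.7%, 4.95 to 31.1%). Type 2 INs ranged from 0 to 379 RPM with a median of 11.9, and type 1 INs from 0 to 543 RPM with a median of 0. Most type 1 cells held no Robo1, but 1 cell gave 73.4% of the read pairs of that type, so the ranges overlap. Pooled levels were 50.1 RPM in type 2 INs, 32.7 RPM in type 3 INs and 19.3 RPM in type 1 INs. The log2 fold was 1.04 for type 2 and -1.07 for type 1 against the other types. The fold of type 2 was past 2-fold in 5 of the 10 alternatives tried and 0.73 at the lowest, with library size taken as the pairs on genes. Robo1 differed between library sets too. In set D it was above 10 RPM in 4 of 12 type 1 cells, 9 of 14 of type 2 and 7 of 17 of type 3, so that type 1 and the others (16 of 31) were less than 20 points apart there. In set C 0 of 11 type 1 cells and 2 of 6 others were above, and in set B 1 of 11 and 0 of 4, at 44.2 and 2.11 RPM, the opposite order. At P2 the order of the shares was alike, with 13 of 31 cells of type 2, 3 of 13 of type 3 and 3 of 22 of type 1 above 10 RPM, and levels of 98.3, 120 and 14.5 RPM. The level of the 13 type 3 INs rested on 1 cell, which gave 78.3% of their read pairs, and was 28.3 RPM without it. That cell, at 1218 RPM, is also the P2 type 3 cell with 3 or more MGE markers.

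**Figure D2:**
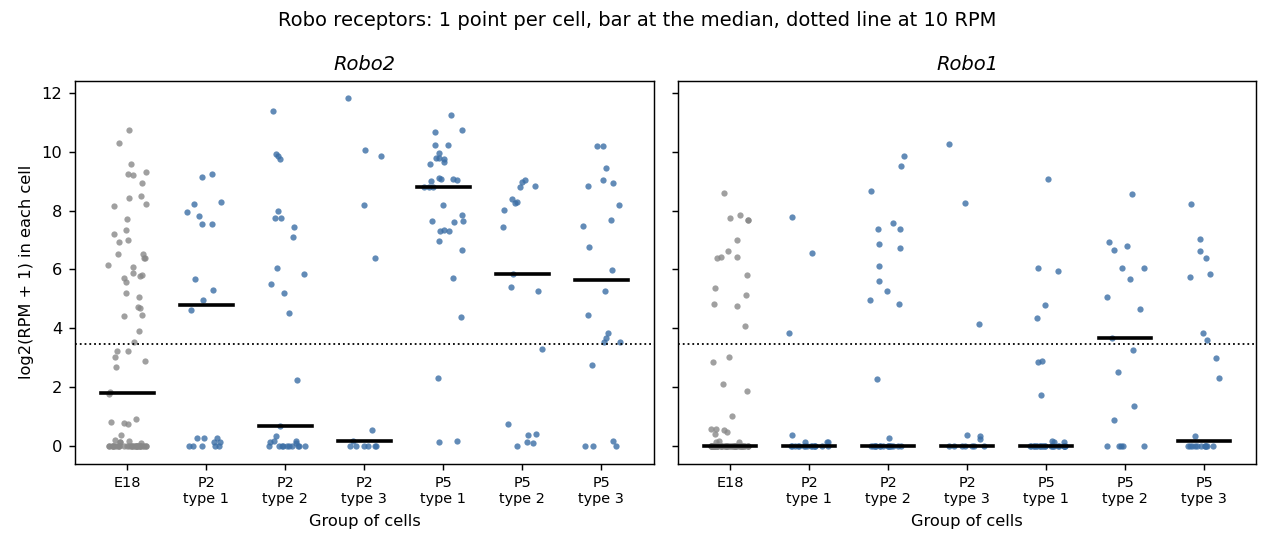
Robo2 (left) and Robo1 (right) in each of the 223 cells, as log2(RPM + 1) on the vertical axis, by group on the horizontal axis, with a bar at the median and a dotted line at 10 RPM. Robo2 is above the line in 31 of 34 P5 type 1 INs, and Robo1 in 5 of the same 34 and in 10 of 19 P5 type 2 INs.

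Cells were also sorted by which of the 2 receptors they held. Among P5 type 1 INs, 27 of 34 (79.4%) were above 10 RPM for Robo2 without Robo1, 1 for Robo1 without Robo2, 4 for both and 2 for neither. In P5 type 2 INs the numbers were 6, 4, 6 and 3 of 19, so cells with both receptors were as many as those with Robo2 alone. In P5 type 3 INs they were 11, 2, 6 and 3 of 22. Neither receptor was above 10 RPM in 40 of 82 E18 cells (48.8%), 27 of 66 P2 cells (40.9%) and 8 of 75 P5 cells (10.7%).

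**Figure D3:**
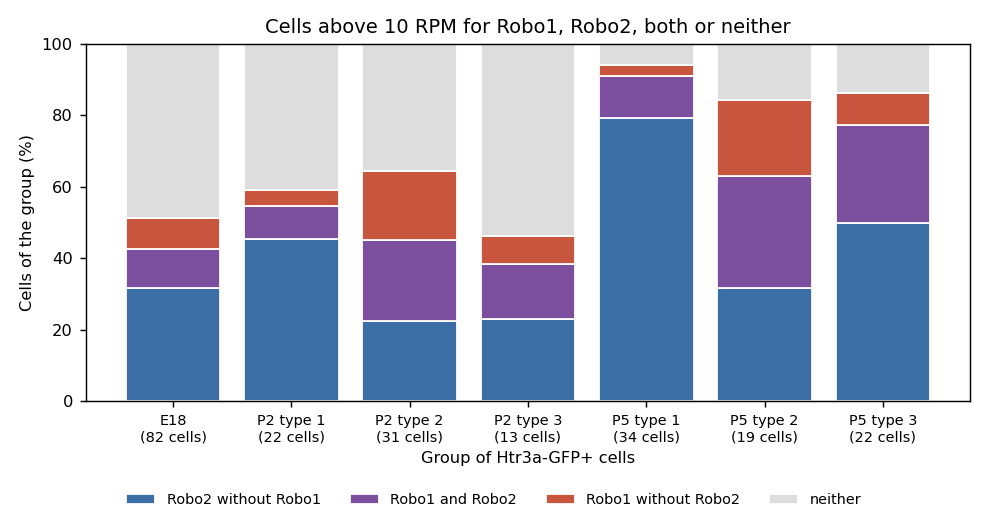
Share of cells (percent, vertical axis) above 10 RPM for Robo2 without Robo1, both, Robo1 without Robo2, or neither, in each group (horizontal axis). Robo2 without Robo1 takes up 79.4% of P5 type 1 INs and 31.6% of P5 type 2 INs.

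With age, Robo2 went from 115 RPM at E18 to 206 RPM at P2 and 399 RPM at P5. E18 cells ranged from 0 to 1708 RPM with a median of 2.52, and 35 of 82 were above 10 RPM (42.7%, 31.8 to 54.1%). P5 cells ranged from 0 to 2394 RPM with a median of 201, and 60 of 75 were above (80%, 69.2 to 88.4%). The ranges overlap while the intervals of the shares do not. The log2 fold of P5 against E18 was 1.78, and 2.84 within set B, 2.41 within set C and 0.58 within set D. In set D, 17 of 25 E18 cells and 32 of 43 P5 cells were above 10 RPM, so the 2 ages differed much less there than in set B, with 13 of 48 and 13 of 15. At P2 the level was 128 RPM in type 1, with 12 of 22 cells above 10 RPM, 205 RPM in type 2 (14 of 31) and 419 RPM in type 3 (5 of 13). The highest of the 13 type 3 cells, at 3578 RPM, gave 59.2% of their read pairs, and without it they were at 184 RPM. Robo1 was at 25.5 RPM at E18 (16 of 82 cells), 70.9 RPM at P2 (19 of 66) and 30.7 RPM at P5 (23 of 75).

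The Slits, the secreted ligands of Robo receptors, were rare. At least 1 of Slit1, Slit2 and Slit3 was above 10 RPM in 10 of 82 E18 cells (12.2%), 9 of 66 P2 cells (13.6%) and 2 of 75 P5 cells (2.67%), and in 0 of 22 P5 type 3 INs, which allows a share of up to 13.6%. Slit1 was above 10 RPM in 13 cells of 223, with 724 RPM in the highest cell, Slit2 in 8 and Slit3 in 1. Slit2 was above 10 RPM in 3 of 82 E18 cells, 5 of 66 P2 cells and 0 of 75 P5 cells, which allows a share of up to 4% at P5. A Robo receptor and a Slit were above 10 RPM in the same cell in 11 of 223 cells.

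Ephrin-B2, the product of Efnb2, is a transmembrane ephrin that can also signal into the cell that carries it. At E18 Efnb2 ranged from 0 to 2747 RPM with a median of 65.6, and 53 of 82 cells were above 10 RPM (64.6%, 53.3 to 74.9%), at a pooled 205 RPM. P2 cells ranged from 0 to 486 RPM with a median of 0.284, and 26 of 66 were above (39.4%, 27.6 to 52.2%), at 52.2 RPM. The ranges overlap, the intervals of the shares do not, and the log2 fold of P2 against E18 was -1.95. P5 cells were at 125 RPM, with 41 of 75 above 10 RPM (54.7%), a share whose interval overlaps that of E18. Type 3 INs held the least at both postnatal ages. At P5, 7 of 22 type 3 INs (31.8%, 13.9 to 54.9%) against 34 of 53 others (64.2%, 49.8 to 76.9%) were above 10 RPM, with medians of 0.678 and 65.1 RPM and a log2 fold of -1.62. At P2, 2 of 13 type 3 INs against 24 of 53 others were above, with medians of 0 and 2.13 RPM and a log2 fold of -3.99. The lower level of type 3 INs held within library set D at P5 (-1.61). With folds centred on the median of all genes it was -0.78 at P5, less than 2-fold, and -2.65 at P2.

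Efnb3, also a transmembrane ephrin and known from the midline of the spinal cord, was above 10 RPM in 23 of 82 E18 cells at 59.6 RPM, in 13 of 66 P2 cells at 59.2 RPM and in 16 of 75 P5 cells at 40.4 RPM. Type 3 INs again had the smallest shares, namely 1 of 13 at P2 and 2 of 22 at P5, against 8 of 31 and 5 of 19 in type 2 INs. In P2 type 2 INs 1 cell at 1704 RPM gave 62.7% of the read pairs. Efnb1 was above 10 RPM in 19 of 223 cells.

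Ephrin-A5, the product of Efna5, is the ligand best known from topographic maps of axons, and it was mostly found before birth. At E18 Efna5 ranged from 0 to 1142 RPM with a median of 0.0793, and 21 of 82 cells were above 10 RPM (25.6%, 16.6 to 36.4%), with a median of 325 RPM among those 21. At P2, 3 of 66 cells (4.55%, 0.947 to 12.7%) and at P5 3 of 75 (4%, 0.833 to 11.2%) were above, none of them type 3 INs. Their highest levels were 770 and 1086 RPM. A postnatal cell with Efna5 thus reached the level of an E18 cell, but such cells were fewer, and the intervals of the shares do not overlap. Pooled levels were 100 RPM at E18, 19.99 RPM at P2 and 30.96 RPM at P5, with log2 folds of -2.27 and -1.66 against E18. At each of these 2 ages 1 cell gave most of the read pairs, 63.4% at P2 and 68.9% at P5, and without it the levels were 7.44 and 9.83 RPM. Within library set B, which holds the P5 cell, the fold was -0.09, while the share there was 11 of 48 E18 cells against 1 of 15 P5 cells. Of the 11 E18 cells with 3 or more excitatory neuron markers, 5 were above 10 RPM for Efna5, and of the 71 without them 16 (22.5%), at 89.7 RPM. Of the 34 E18 cells with 3 or more MGE markers 10 were above 10 RPM, and of the 48 without them 11. The 4 remaining ephrin-A genes were above 10 RPM in 0 to 12 of 223 cells.

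**Figure D4:**
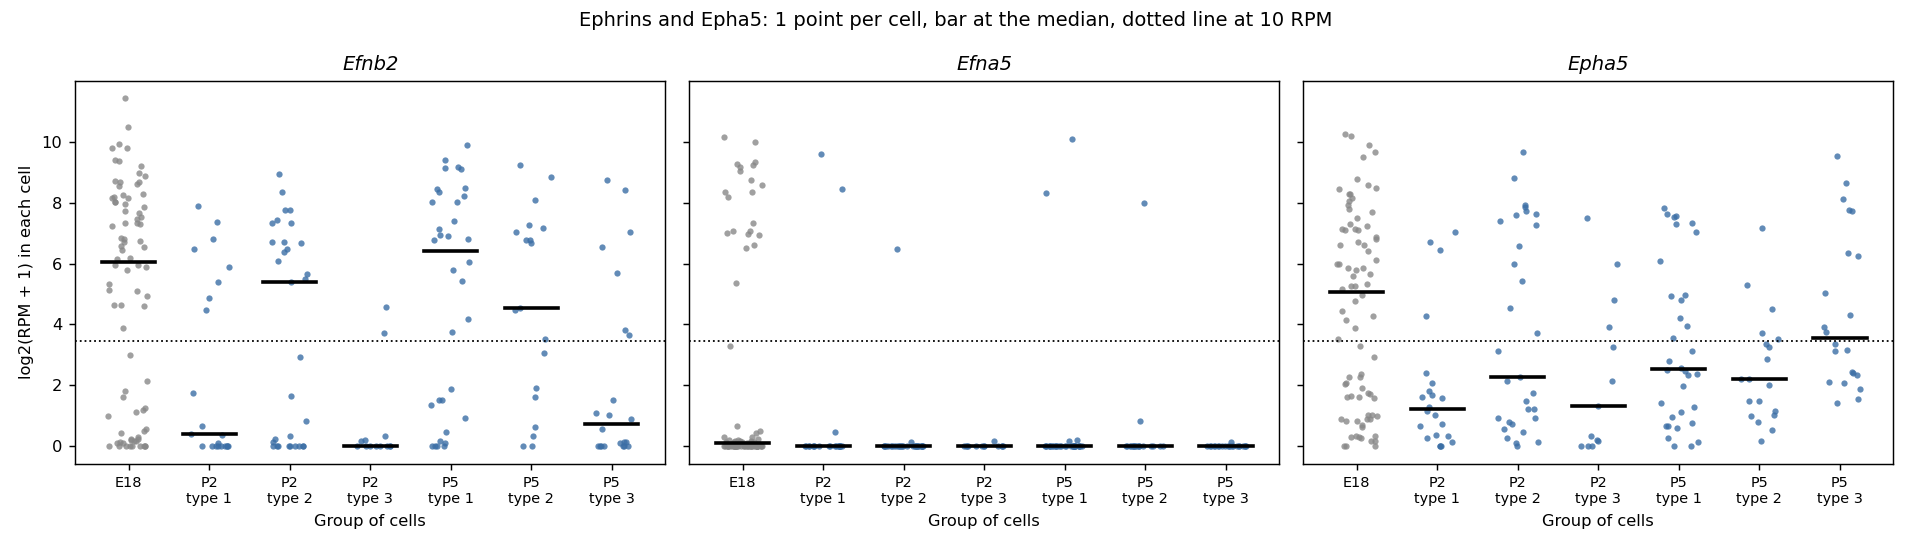
Efnb2, Efna5 and Epha5 in each cell, as log2(RPM + 1) on the vertical axis, by group on the horizontal axis, with a bar at the median and a dotted line at 10 RPM. Efna5 is above the line in 21 of 82 E18 cells and in 6 of the 141 postnatal cells, and Efnb2 in 2 of 13 P2 and 7 of 22 P5 type 3 INs.

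Among the Eph receptors, Epha5, a main receptor of ephrin-A5, was above 10 RPM in the most cells, 100 of 223. It had at least 1 read pair in 211 cells, against 215 for Ephb2. At E18 it ranged from 0 to 1230 RPM with a median of 32.8, and 48 of 82 cells were above 10 RPM (58.5%, 47.1 to 69.3%), at 134 RPM. P2 cells ranged from 0 to 818 RPM with a median of 2.02, and 22 of 66 were above (33.3%, 22.2 to 46.01%), at 54.7 RPM. P5 cells ranged from 0 to 731 RPM with a median of 5.94, and 30 of 75 were above (40%, 28.9 to 51.96%), at 47.3 RPM. The ranges of the 3 ages overlap, and the interval of the share at E18 lies above that at P2 and overlaps that at P5. The log2 fold against E18 was -1.27 at P2 and -1.48 at P5, and within library set C, with 9 E18 and 17 P5 cells, the latter was 0.06. Without the E18 cells that held 3 or more MGE markers it was -1.89. Among types the order turned between ages. At P2 Epha5 was highest in type 2, at 90.5 RPM with 14 of 31 cells above 10 RPM, against 16.1 RPM in type 1 (4 of 22) and 26.1 RPM in type 3 (4 of 13). In type 3, 1 cell gave 67.1% of the read pairs, and without the highest cell of each, types 1 and 3 were at 9.96 and 9.49 RPM. At P5 type 2 INs were the lowest, with 5 of 19 cells at 13.9 RPM, and type 3 INs the highest, with 11 of 22 cells at 90.2 RPM, while 14 of 34 type 1 INs were above 10 RPM at 43.7 RPM. Without their highest cell type 2 INs were at 7.55 RPM and type 3 INs at 60.9 RPM.

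Epha4, the receptor that binds both ephrin classes, was above 10 RPM in 19 of 82 E18 cells at 92.7 RPM, 7 of 66 P2 cells at 46.2 RPM and 17 of 75 P5 cells at 75.5 RPM. It was found in 0 of 13 P2 type 3 INs, which allows a share of up to 23.1%. Single cells made up much of its level in several groups, with 70.2% of the read pairs of P5 type 2 INs and 55.1% of those of P2 type 1 INs in 1 cell each. At E18 it was above 10 RPM in 8 of the 11 cells with excitatory neuron markers, at 232 RPM, and in 11 of the 71 others, at 70.8 RPM, so the cells with those markers carried more of it. Their part in the level of the age was not tested. Epha7, also a receptor of A ephrins, was above 10 RPM in 28 of 82 E18 cells, 18 of 66 P2 cells and 18 of 75 P5 cells, at 73.6, 45.7 and 40.6 RPM. At P5 it was lowest in type 1 INs, with 5 of 34 cells and 16.5 RPM, and highest in type 3 INs, with 8 of 22 cells and 83.9 RPM. Of the 8, 1 cell gave 55.2% of the read pairs of type 3, and without it the level was 39.5 RPM, below the 44.97 RPM of type 2 (5 of 19 cells). That of type 2 was 24.8 RPM without its own highest cell. Ephb2, a receptor of B ephrins, had at least 1 read pair in 215 of 223 cells but was above 10 RPM in 49. At P5 it was at 73.1 RPM in type 3 INs (8 of 22 cells), 29.6 RPM in type 1 INs (8 of 34) and 5.96 RPM in type 2 INs (2 of 19), and 1 cell gave 45.2%, 69.7% and 46.95% of their read pairs. Without those cells the levels were 42.03, 9.19 and 3.32 RPM, in the same order. At P2 type 2 INs were the highest, at 26.6 RPM with 7 of 31 cells, and type 3 INs the lowest, at 4.50 RPM with 1 of 13. Without the highest cell of each they were at 15.1 and 1.90 RPM. Epha3 was above 10 RPM in 35 of 223 cells, 18 of them at E18. Epha2, though low, had at least 1 read pair in 191 cells and was above 10 RPM in 5 of 22 P5 type 3 INs and 0 of the 53 other P5 cells, with 13.0 RPM in the highest cell at P5.

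The netrin receptors were found in fewer cells at P2 than at the other ages. At least 1 of the 4 Unc5 genes, Dcc and Neo1 was above 10 RPM in 43 of 82 E18 cells (52.4%), 22 of 66 P2 cells (33.3%) and 44 of 75 P5 cells (58.7%). The median number of all genes above 10 RPM was 2496 at E18, and 1834, 2482 and 1437 in types 1, 2 and 3 at P2. Of all genes, 8.89% had a share 20 points lower at P2 than at E18 and 0.353% higher, and every P2 cell is in library set A. Unc5c, a receptor of netrin-mediated repulsion, was above 10 RPM in 9 of 82 E18 cells at 28.2 RPM, 3 of 66 P2 cells at 5.03 RPM and 19 of 75 P5 cells at 22.1 RPM. At E18 1 cell gave 48.4% of its read pairs. At P5 it was at 33.7 RPM in type 1 INs (10 of 34 cells), 12.05 RPM in type 2 INs (6 of 19) and 9.56 RPM in type 3 INs (3 of 22). Without the highest cell of each, the last 2 levels were 5.83 and 3.15 RPM. The 4 type 2 INs with 3 or more markers of excitatory neurons, astrocytes or oligodendrocytes were at 38.4 RPM (2 of 4) and the other 15 at 5.02 RPM (4 of 15), and the part of those cells in the level was not tested. Neo1 was above 10 RPM in 17 of 82 E18 cells at 39.1 RPM, 6 of 66 P2 cells at 25.5 RPM and 22 of 75 P5 cells at 43.6 RPM. At E18 it was at 104 RPM in the 11 cells with 3 or more excitatory neuron markers (6 of 11) and at 28.96 RPM in the other 71 (11 of 71), and at 6.32 RPM in the 34 cells with 3 or more MGE markers and 62.5 RPM in the other 48. In P5 type 2 INs it was at 119 RPM in the 4 cells with markers of another cell type (3 of 4) and at 10.6 RPM in the other 15 (3 of 15). The part of those cells in the levels was not tested. Its level of 106 RPM in P2 type 3 INs came from 1 of 13 cells, which held 99.97% of the read pairs, and was 0.0396 RPM without that cell. Dcc was above 10 RPM in 11 of 82 E18 cells, 3 of 66 P2 cells and 6 of 75 P5 cells, and Unc5d in 15, 8 and 8. Of the ligands, Ntn1 was above 10 RPM in 3 of 82 E18 cells, 0 of 66 P2 cells and 7 of 75 P5 cells, the 7 being 3 type 2 and 4 type 3 INs. The limit at P2 is 4.55%. Ntn4 was above 10 RPM in 8 of 223 cells. A netrin and a netrin receptor were found in the same cell in 9 of 223 cells, 4 of them among the 19 P5 type 2 INs.

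The 18 genes that passed the minimum were compared across groups beside all 9358 genes that passed it, with log2 folds of pooled RPM after adding 1 RPM to both sides. At P5, type 1 INs had higher Robo2 and lower Robo1 than the other types by at least 2-fold and 20 percentage points of cells, and type 2 INs the reverse. Not all of these calls held under the alternatives. The share of Robo2 in type 1 was less than 20 points higher with a threshold of 1 RPM (32 of 34 type 1 cells) and without the cells that held markers of another cell type, at 18.2 points the lowest, and in type 2 it was 19.0 points lower without those cells. The fold of Robo2 in type 2 was past 2-fold in 9 of 10 alternatives, and was -0.62 within library set D, which holds 14 of the 19 type 2 cells. The fold of Robo1 in type 2 is the one given above that was past 2-fold in 5 of 10 alternatives. For type 1, 5 of the 18 were at least 2-fold higher and 4 lower, against 23.9% and 23.1% of all genes, 1 each differed by 20 points, against 4.86% and 5.48%, and the same 2 met both limits, against 3.09% and 3.56%. For type 2, 5 were 2-fold higher and 6 lower, against 23.9% and 21.1%, 1 each differed by 20 points, against 15.3% and 1.29%, and the same 2 met both limits, against 7.11% and 0.727%. For type 3, 3 were 2-fold higher (Epha5, Epha7 and Ephb2) and 7 lower, against 13.4% and 46.9%. Efnb2 was the 1 gene 20 points lower, against 14%, and met both limits, against 11.8%, and 0 of 18 did on the higher side, against 2.87%. Epha2 was 20 points higher in type 3, against 5.27% of all genes, with a log2 fold of 0.72. The median over all genes was -0.85 for type 3, and with folds centred on it 5 of the 18 were 2-fold higher and 3 lower. With library size taken as the pairs on genes, the numbers were 5 and 4 for type 3, and 3 and 6 for type 2. The interval of the share of type 1 cells overlapped that of the other types for all 11 described genes, and the same held for types 2 and 3, at P5 and at P2.

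At P2, type 2 INs had higher Epha5, Efnb2 and Robo1, type 1 INs lower Epha5 and Robo1, and type 3 INs lower Efnb2, by both limits. The calls of Efnb2 held in every alternative run for them. Those of the other genes did not all hold. For Epha5 the difference in share was -4.55 points in type 1 and 10.6 points in type 2 with a threshold of 1 RPM, and -15.9 points in type 1 with one of 50 RPM. For Robo1 it was -15.9 points in type 1 and 17.6 points in type 2 with a threshold of 50 RPM, and the fold of type 2 was past 2-fold in 6 of 8 alternatives, with 0.95 the lowest log2 value. For type 2, 9 of 18 were 2-fold higher and 2 lower, against 29.6% and 20.5% of all genes, 3 and 0 differed by 20 points, against 11.2% and 0.492%, and as many met both limits, against 5.4% and 0.385%. For type 1, 3 were 2-fold higher and 7 lower, against 19.6% and 33.7%, 0 and 2 differed by 20 points, against 2.9% and 4.84%, and as many met both, against 1.59% and 3.61%. For type 3, 3 were 2-fold higher and 10 lower, against 15.4% and 54.8%, 0 and 1 differed by 20 points, against 1.76% and 15.2%, and as many met both, against 0.94% and 10.8%. The median over all genes was -1.35 for type 3, and with folds centred on it 7 of the 18 were 2-fold higher and 7 lower, and with edgeR TMM factors 5 and 9. The types of 1 age share their cells as each other's comparison, so these counts are not independent. Side by side, the log2 fold of Robo1 was -2.75 in type 1 at P2 and -1.07 at P5, and 1.16 and 1.04 in type 2. That of Robo2 in type 1 was -0.96 at P2 and 1.44 at P5, and at P2 12 of 22 type 1 cells against 19 of 44 others were above 10 RPM.

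**Figure D5:**
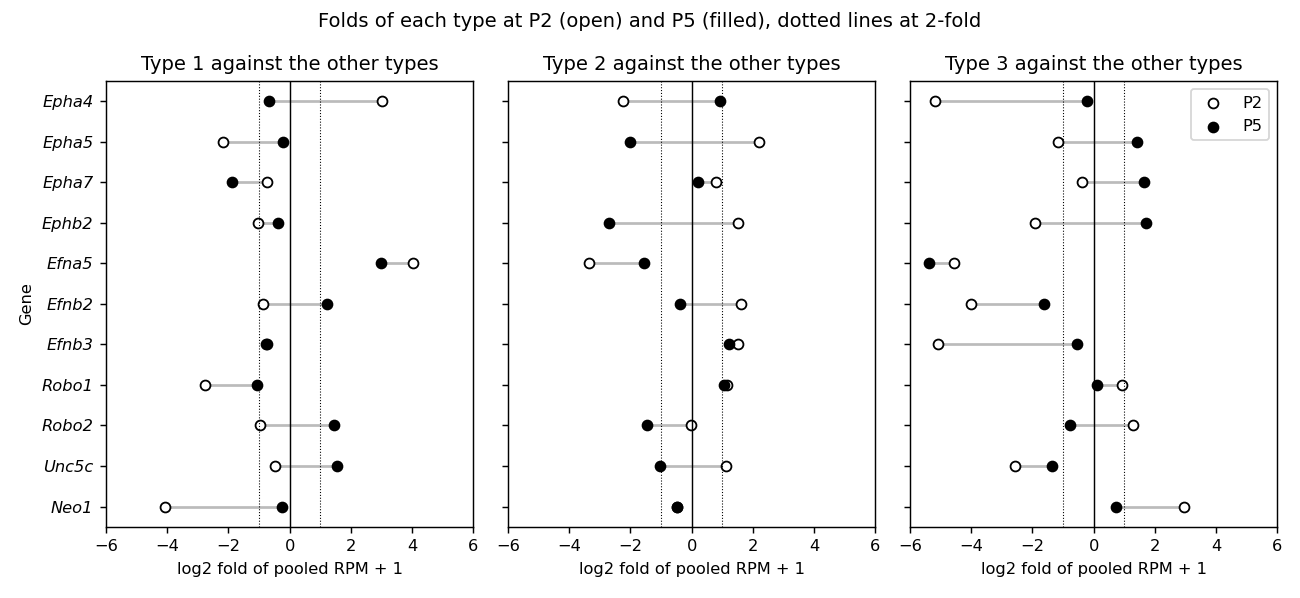
Log2 fold of pooled RPM + 1 (horizontal axis) of each type over the other types at the same age, for the 11 described genes (vertical axis), at P2 (open) and P5 (filled), with dotted lines at 2-fold. Robo1 lies at -2.75 and -1.07 in type 1 and at 1.16 and 1.04 in type 2, and Epha5 in type 2 lies at 2.20 at P2 and -2.02 at P5.

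Between ages, P5 cells had higher Robo2 and lower Efna5 than E18 cells by both limits, and P2 cells lower Epha5, Efna5 and Efnb2. Of the 18 genes, 1 was 2-fold higher at P5 and 3 lower, against 11.4% and 19.1% of all genes, 1 each differed by 20 points, against 1.43% and 4.37%, and the same 2 met both limits, against 0.887% and 2.25%. At P2, 2 were 2-fold higher than at E18 and 7 lower, against 11.7% and 21.6%, 0 and 3 differed by 20 points, against 0.353% and 8.89%, and as many met both, against 0.182% and 3.15%. With library size taken as the pairs on genes the numbers were 2 and 3 at P5 and 3 and 6 at P2. The median log2 fold of the 18 was -0.41 at P5 and -0.93 at P2, against -0.17 and -0.20 over all genes. Both comparisons share the E18 cells. Intervals of the shares were apart for 2 of the 11 described genes at P5 (Robo2 and Efna5) and for 3 at P2 (Epha5, Efna5 and Efnb2). These intervals take the cells of 1 pool as separate draws. They cover no differences between animals or library sets, so intervals that are apart are a description and not a test. Without the cells holding 3 or more markers of another cell type the log2 fold of Robo2 was 2.17. Within library set D it was 0.58 at P5, with 17 of 25 E18 cells and 32 of 43 P5 cells above 10 RPM. Both limits were missed there. Library sets were not among the 5 share alternatives (thresholds of 1 and 50 RPM, thinned cells, and either set of marker cells left out). Over these 5 the share difference was past 20 points in all for Robo2 at P5 and Efnb2 at P2, but not for other calls. For Efna5 it was so in 3 of 5 at P5 and in 2 of 5 at P2, with -18.3 and -17.99 points the smallest, both without the cells with markers of another cell type. Both were also under 20 points without the E18 cells with 3 or more MGE markers, and that at P2 with a threshold of 50 RPM. For Epha5 at P2 it was so in 3 of 5, and under 20 points with thresholds of 1 RPM, at -15.9 points (64 of 82 E18 cells against 41 of 66), and of 50 RPM.

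A list of 53 genes that act with these receptors was examined in the same way, and 44 of them passed the minimum. It holds adaptors, kinases, GTPases and their regulators, and further binding partners. At P5, Srgap1, a GTPase-activating protein that binds Robo receptors, was at 2.66 RPM in type 1 (2 of 34 cells above 10 RPM) and at 78.8 RPM in type 2 (8 of 19). Adam10, a protease that sheds ephrins, was at 26.7 RPM in type 1 INs (9 of 34 cells) and 155 RPM in type 2 INs (16 of 19). Against the other types, type 3 INs had a share at least 20 points higher for Srgap1 and at least 20 points lower for Adam10. Neither was 2-fold apart in level there. Flrt1, of the FLRT family whose members bind Unc5 receptors, was lower in type 1 INs than in the others, at 1.93 against 79.1 RPM with 2 of 34 against 14 of 41 cells. These 3 of the 44 (6.82%) met both limits on the lower side in type 1, against 3.56% of all genes, and 2 (4.55%), Sipa1l1 and Cfl1, on the higher side, against 3.09%. Sipa1l1, a partner of Eph receptors, was at 118 RPM in type 1 (17 of 34 cells), 20.5 RPM in type 2 (5 of 19) and 93.2 RPM in type 3 (7 of 22). Rac1, a GTPase that acts on actin at the leading edge, was at 287 RPM in type 2 (17 of 19 cells) and at 27.7 RPM in type 3 (7 of 22). Of the 44, 6 (13.6%) were 2-fold higher and 11 (25%) lower in type 1, against 23.9% and 23.1% of all genes. In type 2 the numbers were 13 (29.5%) and 9 (20.5%), against 23.9% and 21.1%, and in type 3 9 (20.5%) and 14 (31.8%), against 13.4% and 46.9%. By both limits, 6 (13.6%) were higher in type 2 and 0 lower, against 7.11% and 0.727% of all genes. In type 3, 0 were higher and 9 (20.5%) lower, against 2.87% and 11.8%. By 20 points alone, type 2 had 13 (29.5%) higher and 0 lower, against 15.3% and 1.29%. Type 3 had 3 (6.82%) higher and 11 (25%) lower by 20 points, against 5.27% and 14%. In type 3 INs Nck2, an adaptor of Eph receptors (4.39 against 42.1 RPM), and Cfl1, the actin-severing cofilin (37.5 against 291 RPM), had the lowest folds of those that met both limits, with Rac1 after them, beside a median over all genes of -0.85.

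At P2, 9 of the 44 (20.5%) were 2-fold higher and 14 (31.8%) lower in type 1 INs, against 19.6% and 33.7% of all genes. In type 2 the numbers were 7 (15.9%) and 11 (25%), against 29.6% and 20.5%, and in type 3 14 (31.8%) and 16 (36.4%), against 15.4% and 54.8%. By both limits, 1 (2.27%) was higher in type 1 and 4 (9.09%) lower, against 1.59% and 3.61% of all genes. In type 2 they were 2 (4.55%) and 1 (2.27%), against 5.4% and 0.385%, and in type 3 0 and 6 (13.6%), against 0.94% and 10.8%. Arhgap39, a GTPase-activating protein that binds Robo receptors, was above 10 RPM in 12 of 31 type 2 INs against 2 of 35 others, and Arhgef15, an exchange factor bound by Eph receptors, in 17 of 31 against 6 of 35. Both were lower in type 1 INs, as was Itsn1, a scaffold and exchange factor, in 3 of 22 against 19 of 44 cells. Srgap2 was lower in type 2 INs, at 94.98 against 269 RPM. In type 3 INs the kinase Pak1 was above 10 RPM in 0 of 13 cells against 28 of 53 others, Srgap1 in 0 of 13 against 11 of 53 and Rhoa in 1 of 13 against 18 of 53, beside a median log2 fold over all genes of -1.35 and 15.2% of all genes 20 points lower. Srgap1, named here after its values were seen, was higher in type 1 INs at P2, at 29.1 against 11.5 RPM with 7 of 22 against 4 of 44 cells, the opposite of its order at P5. Nck2 and Rac1, lower in type 3 INs at P5, were at least 2-fold higher in them at P2, with shares less than 20 points apart. Cfl1 was lower in type 3 INs by both limits at P2 as well. Between ages, 3 of the 44 (6.82%) were 2-fold higher and 2 (4.55%) lower at P5 than at E18, against 11.4% and 19.1% of all genes, and 6 (13.6%) and 10 (22.7%) at P2, against 11.7% and 21.6%. By both limits there was 1 (2.27%) on each side at P5, against 0.887% and 2.25%. At P2 there were 0 higher and 2 (4.55%) lower, against 0.182% and 3.15%. Sipa1l1, a Rap GTPase-activating protein, was above 10 RPM in 29 of 75 P5 cells against 10 of 82 E18 cells, and Pak1 in 26 of 75 against 53 of 82. At P2 Rhoa was above 10 RPM in 19 of 66 cells against 53 of 82 at E18, and Dscaml1, an adhesion molecule related to Dscam, in 17 of 66 against 38 of 82.

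Within single cells the genes were found in combination. An E18 cell held from 0 to 14 of the 36 genes above 10 RPM, with a median of 4. The median was 3 among P2 cells and 5 among P5 cells, both with a range from 1 to 9. The number of all genes above 10 RPM differed as well, with a median of 2496 per cell at E18, 1437 in P2 type 3 INs, 2738 in P5 type 2 INs and 2101.5 in P5 type 3 INs. For each 1000 of those genes P5 type 3 INs held 2.23 of the 36, and the other groups from 1.60 to 1.80. Of the 16 cells with 8 or more of the 36, 11 were E18 cells. An Eph receptor and an ephrin were above 10 RPM in the same cell in 56 of 82 E18 cells (68.3%), 29 of 66 P2 cells (43.9%) and 38 of 75 P5 cells (50.7%). Of the 27 cells with Efna5, 19 also held its receptor Epha5, 18 of them at E18, where Epha5 was in 48 of 82 cells. Efnb2 and Robo2 were above 10 RPM together in 21 of the 22 P5 type 1 INs with Efnb2 and in 7 of the 7 P5 type 3 INs with it, among types in which Robo2 was in 31 of 34 and 17 of 22 cells. These counts depend on how often each gene was found and on depth, and no association was tested.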

How the data were processed

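Single Htr3a-GFP+ cells captured on microfluidic chips were sequenced as read pairs at E18, P2 and P5. The authors aligned them to GRCm38 with TopHat and counted them per gene with HTSeq 0.6.1, and the deposited counts are whole read pairs without normalization or molecular identifiers. Counts were multiplied by the deposited coefficient of each cell, which gives RPM of all mapped pairs. The authors inspected capture sites by microscope, and no doublet caller was run. No 2 cells had identical counts (0 pairs), and 0 columns of cells were left unused.

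The 36 genes and the list of partners (53 genes, of which Ntn3 was not matched by symbol) were chosen with earlier results of these data known. Comparisons took genes for which over 5% of the 223 cells exceeded 10 RPM. A fold was called at 2-fold, and a share at 20 percentage points. Genes found in 25% of the cells of a group or more were described, and of the partners the 3 of largest fold that met both limits. Symbols were looked up by Ensembl identifier in a reference table, which matched 42462 of them, and positions are those of GENCODE on GRCm38. Alternatives changed the pseudocount (0.1 or 10 for 1), library size (pairs on genes, edgeR TMM or DESeq2 factors of pooled counts), the filter, the threshold (1 or 50 RPM), depth (thinned to 3707601 pairs), the scale (mean of log2 values), single cells and library sets, and those on other cell types' markers and on centring were chosen after seeing the data. Factors came from edgeR 4.0.16 and DESeq2 1.42.0 in R 4.3.3, and the rest from Python 3.11.15 with scipy 1.17.1, pandas 2.3.3, numpy 2.4.6 and matplotlib 3.10.9. The fold step was tested on simulated Poisson counts with random detection and no other spread between cells. That test cannot show how stable folds are where 1 cell holds most of the read pairs.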

Additional observations from a re-analysis of the deposited data

Results flagged for a closer look

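Epha5, Ephb2 and Unc5c changed sides in pooled level between P2 and P5, in that a type lay at least 2-fold above the other types at one age and at least 2-fold below them at the other. For Epha5 in type 2 INs the P2 and P5 log2 folds were 2.20 and -2.02, a difference of -4.22, and in type 3 INs it was -1.15 and 1.41, a difference of 2.56. For Ephb2 in type 2 INs the folds were 1.52 and -2.70, a difference of -4.21, and in type 3 INs -1.91 and 1.73, a difference of 3.64. Unc5c in type 2 INs was at 1.12 and -1.03, a difference of -2.15. Its share of cells above 10 RPM did not change sides. That share was higher in type 2 at P2 (2 of 31 against 1 of 35) and at P5 (6 of 19 against 13 of 56). Several of these folds did not stay past 2-fold under the alternatives. In type 3 INs at P2, where the median over all genes was -1.35, centring moved Epha5 to 0.193 and Ephb2 to -0.57, and Epha5 was past 2-fold in 2 of 8 alternatives. Unc5c in type 2 INs was past 2-fold in 4 of 8 at P2 and in 7 of 10 at P5. None of these differences was tested, since each age is 1 pool of brains. All P2 cells carry library set A and all P5 cells other sets, so age cannot be told apart from the set. Few cells stood behind several of these values. Ephb2 was above 10 RPM in 2 of 19 P5 type 2 INs and 1 of 13 P2 type 3 INs, and Unc5c in 2 of 31 P2 type 2 INs.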

How the results depend on the processing

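Of the 50 folds of the 11 described genes that were past 2-fold, 43 kept their sign under each alternative tried and 12 stayed past 2-fold under each. Counts of genes past 2-fold, higher and lower added, kept within 1.5 times with a pseudocount of 0.1, the other library sizes and centring. By direction they moved more, as the report gives, with type 3 going from 3 higher and 7 lower to 5 and 3 at P5 and from 3 and 10 to 7 and 7 at P2 with centring. With the mean of log2(RPM + 1) they were 5 in place of 9 for type 1, 3 in place of 11 for type 2 and 5 in place of 10 for type 3 at P5, 2 in place of 10, 5 in place of 11 and 2 in place of 13 for types 1, 2 and 3 at P2, and 3 in place of 9 for P2 against E18. With a pseudocount of 10 they were 6 for types 2 and 3 at P5 and for types 1 and 2 at P2. With no filter on low values they were 16 for type 1 at P5, 18, 18 and 22 for types 1, 2 and 3 at P2, 11 in place of 4 for P5 against E18 and 14 for P2 against E18. Without the highest cell of each side P5 against E18 gave 7, and within library sets B, C and D it gave 11, 10 and 10, and type 1 at P5 within set C gave 14. Genes with shares 20 points apart were 4 in place of 2 for type 1 at P5 with cells thinned to the same number of mapped pairs (pairs on genes were not matched), 4 in place of 2 for type 3 at P5 with a threshold of 1 RPM, and with 50 RPM 0 in place of 2 for type 1 at P2 and 1 in place of 3 for P2 against E18. Without cells holding markers of another cell type they were 1 in place of 2 for type 2 at P5 and for P5 against E18. Folds that reversed were Efna5 within set D (-3.24 in type 1 and 4.203 in type 2 at P5) and by the mean of logs in type 2 (0.126), Unc5c in type 2 at P5 (0.00743) and Robo2 in type 3 at P2 (-0.107) by the mean of logs, Epha5 in type 3 at P2 with centring (0.193), Neo1 in type 3 at P2 without the highest cell (-2.32) and Epha5 in P5 against E18 within set C (0.0635). The cause was not tested beyond the numbers of cells given in the report. No paired analysis was possible because cells are not replicates and no test was made, and values within the library sets that groups share stand in its place.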
